A study of Mus musculus with 267 samples.

Results

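CEBPb binding was mapped by ChIP-seq in bone marrow-derived macrophages (BMDMs) of 4 inbred mouse strains other than C57, namely BALB (BALB/cJ), NOD (NOD/ShiLtJ), PWK (PWK/PhJ, derived from wild mice) and SPRET (SPRET/EiJ, derived from Mus spretus). Each strain had a basal group of untreated cells and a group given 20 ng/mL mouse recombinant IL-4 for 24 h, with 2 CEBPb libraries per group, 16 libraries of the 267 samples in the series. All cells came from female mice of 8 to 12 weeks. They were grown from marrow for about a week with L929 cell-conditioned medium as a source of M-CSF, and M-CSF was added later. Every group is a bulk culture. No allele was introduced, and no agent other than IL-4 was given as a treatment in any group. The members are the peaks of the 8 CEBPb lists that the authors deposited, 1 list per strain and condition, made by keeping peaks that recurred between the replicate libraries (the IDR procedure). Counting a peak found at both times once, they hold 161673 peaks, 35654 in BALB, 45946 in NOD, 43768 in PWK and 36305 in SPRET, against 38236 in C57. The 54 peak lists of the series examined here, for all factors, hold 1958714 peaks with each list counted separately.

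A peak of the 24 h list was called gained when it overlapped no peak of the same strain's basal list by at least 1 bp, and shared when it did. A basal peak without a counterpart at 24 h was called lost. Since each list stands for both libraries, a count of peaks has no spread between replicates, the depth of the CEBPb libraries is unknown here, and differences in peak number between strains or times cannot be tested. Intervals given with shares of peaks are exact binomial 95% intervals (Clopper-Pearson) that cover counting error only. Where 4 values are listed without names, they stand for BALB, NOD, PWK and SPRET in that order.

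CEBPb is a basic leucine zipper factor of the C/EBP family. It binds DNA as a dimer, with itself, with other C/EBP proteins or with ATF proteins, and its preferred sites read TTGCNNAA. In myeloid cells it works beside PU.1, the factor that sets macrophage identity, and it is known for its part in inflammatory genes and in Arg1, a marker of alternative activation. IL-4 signals through its receptor and STAT6 to the alternative activation programme, in which EGR2 and PPARg act as further transcription factors. H3K27ac is an acetyl mark on histone H3 found at active promoters and enhancers.

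The 8 sequences below are bound stretches from the named regions, chosen among those that hold the C/EBP motif. The first 3 lie under gained peaks whose region rose in H3K27ac, and the next under a shared peak whose region rose. The following pair lie under lost peaks and the last pair under shared peaks whose regions were lower at 24 h. They are the mm10 reference letters, plus strand, 5′ to 3′, so they show the C57-derived sequence and no strain variant. Capitals mark the C/EBP motif TTGCNNAA, on either strand.
Tex9 intron, gained in BALB, chr9:72485586-72485799: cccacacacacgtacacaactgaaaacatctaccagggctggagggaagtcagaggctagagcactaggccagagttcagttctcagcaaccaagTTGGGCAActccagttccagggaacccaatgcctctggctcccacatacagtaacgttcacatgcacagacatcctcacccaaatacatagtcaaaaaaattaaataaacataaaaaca
Nbas intron, gained in NOD, chr12:13410297-13410503: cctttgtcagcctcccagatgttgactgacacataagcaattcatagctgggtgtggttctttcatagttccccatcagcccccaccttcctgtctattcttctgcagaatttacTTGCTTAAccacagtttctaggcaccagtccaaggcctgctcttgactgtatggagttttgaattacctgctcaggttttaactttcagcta
Ang2 intergenic site, gained in all 4 strains, chr14:51185720-51185979: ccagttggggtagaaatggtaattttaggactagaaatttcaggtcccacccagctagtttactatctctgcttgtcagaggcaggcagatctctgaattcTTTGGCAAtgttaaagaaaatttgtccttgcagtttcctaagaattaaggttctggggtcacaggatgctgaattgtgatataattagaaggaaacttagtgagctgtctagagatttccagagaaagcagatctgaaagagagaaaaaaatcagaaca
Upstream of Fbp1, shared in SPRET, chr13:62895269-62895477: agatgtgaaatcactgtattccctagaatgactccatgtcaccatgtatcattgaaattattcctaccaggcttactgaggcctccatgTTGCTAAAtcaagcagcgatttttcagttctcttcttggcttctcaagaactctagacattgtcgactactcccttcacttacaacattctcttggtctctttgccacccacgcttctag
Kcnj16 intron, lost in BALB, chr11:110993379-110993590: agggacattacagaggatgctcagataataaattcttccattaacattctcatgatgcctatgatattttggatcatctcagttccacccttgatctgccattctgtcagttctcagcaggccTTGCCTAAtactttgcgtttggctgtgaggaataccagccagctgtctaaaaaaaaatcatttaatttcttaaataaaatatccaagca
Near Has1, lost in NOD, chr17:17866884-17867090: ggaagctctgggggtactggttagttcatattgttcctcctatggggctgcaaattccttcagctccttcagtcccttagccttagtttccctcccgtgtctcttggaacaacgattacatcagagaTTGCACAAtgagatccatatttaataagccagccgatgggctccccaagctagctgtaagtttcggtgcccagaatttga
Map3k5 intron with Map7 as the nearest start, shared in BALB, chr10:20058195-20058405: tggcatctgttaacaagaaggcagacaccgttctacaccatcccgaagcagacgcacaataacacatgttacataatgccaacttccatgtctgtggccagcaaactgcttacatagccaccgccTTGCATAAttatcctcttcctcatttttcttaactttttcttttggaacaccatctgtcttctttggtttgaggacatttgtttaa
Near Smad3, shared in SPRET, chr9:63780674-63780898: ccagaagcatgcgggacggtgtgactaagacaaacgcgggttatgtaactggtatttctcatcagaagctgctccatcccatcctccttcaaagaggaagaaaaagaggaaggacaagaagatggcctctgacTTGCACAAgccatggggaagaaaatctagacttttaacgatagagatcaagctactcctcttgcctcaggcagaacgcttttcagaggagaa
Each of these stretches holds 1 match to the motif, but a match was a condition for printing a stretch. The gained peaks near Ang5 and in the Anks1 intron, among the largest rises in BALB, hold no match.

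IL-4 was accompanied by a much longer CEBPb list in BALB and NOD, a moderately longer one in PWK and a slightly shorter one in SPRET. The BALB lists held 13722 basal and 35329 24 h peaks, the latter split into 21932 gained (62.1%, 95% interval 61.6 to 62.6) and 13397 shared. In NOD the lists held 19060 and 45552 peaks, with 26886 gained (59.0%, 58.6 to 59.5) and 18666 shared. These strains stood near C57, where 20193 of 37499 peaks (53.8%) were gained. PWK had 32353 basal and 39849 24 h peaks, with 11415 gained (28.6%, 28.2 to 29.1), and SPRET had 31109 and 29217, with 5196 gained (17.8%, 17.3 to 18.2). Lost peaks ran the other way. They numbered 325 in BALB (2.37% of the basal list), 394 in NOD (2.07%), 3919 in PWK (12.1%) and 7088 in SPRET (22.8%), compared with 737 in C57 (4.08%).

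**Figure D1:**
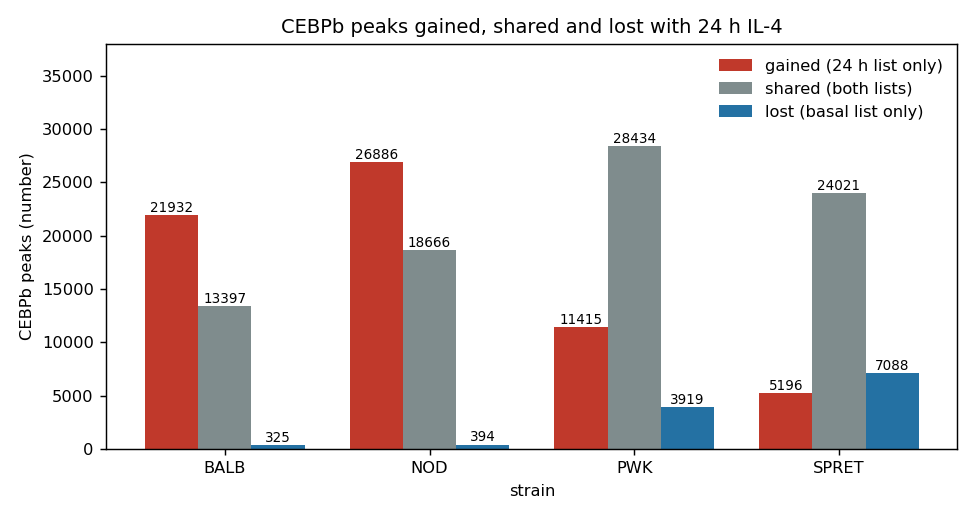
CEBPb peaks per strain, as the number of peaks that were gained, shared or lost between the basal and the 24 h IL-4 list. Gained peaks outnumber shared ones in BALB and NOD (21932 against 13397 and 26886 against 18666), and lost peaks number 3919 in PWK and 7088 in SPRET, against 325 in BALB and 394 in NOD.

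The number of gained peaks moved with the length of the lists. When both lists of a strain were shortened by score to the same length, gained and lost peaks were equal in number by construction and made up 20.0% of each list in BALB (2746 peaks), 19% in NOD (3618), 19.1% in PWK (6181) and 19.8% in SPRET (5791). The part of list length in the number of gained peaks was not tested further.

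Gained peaks were weaker than shared peaks of the same 24 h list. The median of the count that the authors deposited with each peak was 36 for gained and 104 for shared peaks of BALB. For NOD it was 42 and 115, for PWK 32 and 66, and for SPRET 33 and 65. The highest list score, 1000, was reached by 53.0% of gained peaks in BALB, 34.1% in NOD, 21.4% in PWK and 17.5% in SPRET, against 97.6%, 94.8%, 77.9% and 72.7% of shared peaks. The scaling of that count is not given in the sources used here, so it ranks peaks within a list and is not compared between strains.

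Many gained positions were already bound in untreated cells of another strain. In BALB 69.6% of gained peaks (69.0 to 70.2) overlapped a basal CEBPb peak of at least 1 other strain (C57 included), as did 52.1% in NOD (51.5 to 52.7), 38.5% in SPRET (37.2 to 39.9) and 28.9% in PWK (28.1 to 29.7). For shared peaks the figures were 98.3% in BALB, 94.8% in NOD, 78.2% in PWK and 75.3% in SPRET, and for lost peaks 70.2%, 68.5%, 43.2% and 45.4%. These shares move with list length, since BALB, with the shortest basal list, was set against longer ones.

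Location in the genome differed little between the classes. Introns held 49.9%, 50.0%, 50.3% and 49.4% of gained peaks in BALB, NOD, PWK and SPRET, and intergenic sequence 31.9%, 29.5%, 31.3% and 33.7%. Promoters, here the 1 kb on either side of a gene start, held 14.9%, 16.9%, 14.9% and 13.3% of gained peaks and 15.6% to 17.2% of shared ones. The share at promoters was higher among lost peaks, at 22.5% in BALB, 28.2% in NOD, 18.5% in PWK and 21.2% in SPRET. Gained peaks overlapped an accessible region of the same strain (the ATAC-seq regions on which the histone tables are built) in 51.3%, 56.5%, 53.3% and 49.5% of cases, and shared peaks in 75.3%, 80.5%, 70.6% and 65.0%.

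The C/EBP motif was the letter pattern that set the peaks apart from other accessible sequence. TTGCNNAA, searched on both strands of the central 200 bp of mm10 sequence, was present in 34.6% of gained peaks in BALB, 31.0% in NOD, 25.2% in PWK and 28.8% in SPRET. Shared peaks held it more often (48.5%, 42.2%, 37.4% and 40.4%), and lost peaks in 27.7%, 24.4%, 30.9% and 26.8%. All accessible regions of the same strains, read over the same length, held it in 11.2% to 11.7% of cases, and those without a CEBPb peak in 3.96% to 5.09%. The motif was concentrated at the peak centre: in BALB the bin from 0 to 10 bp past the centre held the middle of a match in 7.53% of gained and 15.3% of shared peaks, against 0.219% of accessible regions without a CEBPb peak. The corresponding shares were 6.49%, 12.1% and 0.262% for NOD, 4.24%, 8.57% and 0.202% for PWK, and 4.43%, 8.98% and 0.239% for SPRET. PWK and SPRET differ from the reference at more positions than BALB and NOD, so for them these letters stand less well for the animals' own sequence.

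**Figure D2:**
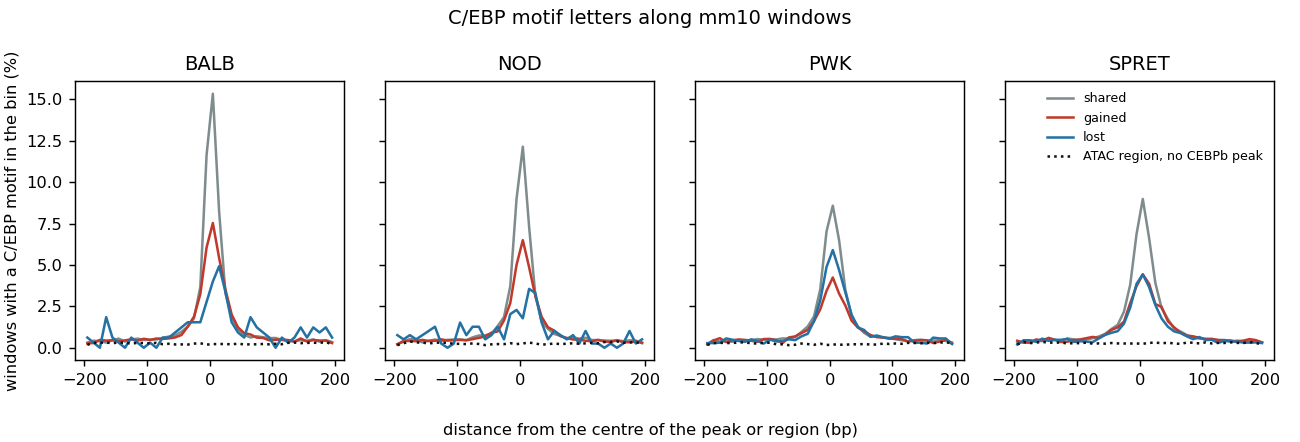
Percent of peaks with the middle of a TTGCNNAA match (either strand) in each 10 bp bin, by distance in bp from the peak centre, 1 panel per strain, with lines for gained, shared and lost peaks and for accessible regions without a CEBPb peak. Shared peaks reach 15.3% in the bin from 0 to 10 bp in BALB and 8.98% in SPRET, gained peaks 7.53% and 4.43%, against 0.202% to 0.262% of regions without a peak over the 4 strains.

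More specific forms of the site were rarer. The palindrome TTGCGCAA, a subset of TTGCNNAA, lay in 1.5%, 1.16%, 0.333% and 0.577% of gained peaks of BALB, NOD, PWK and SPRET, in 1.31% to 2.76% of shared peaks and in 0.15% to 0.204% of all accessible regions. TGATGCAA, the joint site of C/EBP and ATF proteins, lay in 4.34%, 3.43%, 3.05% and 3.04% of gained peaks, against 0.104% to 0.304% of regions without a CEBPb peak. Of patterns for other factors, the EGR letters GTGGGNG were more frequent in gained than in shared peaks in every strain (16.5% against 13.5% in BALB, 16.1% against 13.8% in NOD, 22.6% against 15.7% in PWK, 21.6% against 15.7% in SPRET), while all accessible regions held them in 21.9%, 20.4%, 21.7% and 20.1%, above the gained peaks in BALB and NOD. The STAT6 motif followed the same order, with 7.30%, 7.73%, 8.66% and 8.66% of gained peaks, 6.26% to 6.48% of shared peaks and 4.66% to 5.33% of lost peaks, against 4.99% to 5.40% of all accessible regions. GAGGAAGT, the PU.1 letters, lay in 6.66% to 7.47% of gained peaks and in 9.41% to 11% of all accessible regions. The AP-1 letters TGANTCA were found in 15.8% to 20.6% of gained peaks and 14.7% to 18.2% of all regions.

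PU.1 peaks of the same strain lay at a similar share of gained CEBPb positions in every strain. At 24 h, 49.8% of gained CEBPb peaks in BALB, 53.5% in NOD, 46.0% in PWK and 47.1% in SPRET overlapped a PU.1 peak, against 68.4%, 73.8%, 61.4% and 63.4% of shared peaks. Basal PU.1 peaks already lay at 47.1%, 45.7%, 43.0% and 47.6% of the positions where CEBPb was gained. PU.1 was therefore listed before IL-4 at nearly as many gained positions as after it.

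STAT6, the direct effector of the IL-4 receptor, lay at more gained CEBPb positions at 24 h than in untreated cells in every strain. Its basal peaks lay at 11% of gained positions in BALB, 17.1% in NOD, 9.72% in PWK and 21.5% in SPRET, and its 24 h peaks at 18.5%, 20.3%, 40.5% and 38.5%. At shared positions the change was from 30.0% to 39.6% in BALB, 42.9% to 43.4% in NOD, 30.1% to 59.1% in PWK and 47.3% to 59.2% in SPRET. These shares move with the length of the STAT6 lists. The basal lists held 11486, 20653, 14022 and 28212 peaks and the 24 h lists 16432, 20619, 38679 and 35742. EGR2, a zinc finger factor induced by IL-4, lay at 24 h at 22.6%, 10.9%, 12.3% and 30.3% of gained positions, against 20.0%, 16.4%, 4.2% and 9.35% for its basal peaks. Its share was lower at 24 h than before in NOD, the strain whose EGR2 list was also shorter at 24 h (16604 against 25341 peaks, compared with 37104 against 28842 in BALB, 14919 against 6201 in PWK and 39458 against 12301 in SPRET). PPARg, a lipid-sensing nuclear receptor, lay at 4.56%, 8.54%, 11.9% and 12.5% of gained positions in untreated cells and at 18.4%, 28.6%, 24.3% and 14.9% at 24 h. The PPARg lists changed in length too, from 6524, 12529, 18402 and 19684 basal peaks to 23578, 40426, 46415 and 18487 at 24 h. At least 1 of STAT6, EGR2 and PPARg was listed at 39.7%, 39.8%, 54.1% and 53.3% of gained positions and at 57.7%, 63.1%, 69.1% and 68.5% of shared ones, and all 3 at 3.60% to 6.24% and 6.43% to 12.2%.

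Of the pairs of these strains, BALB and NOD had the most gained sites in common (11157), and NOD and PWK came next (4633). Overlapping peaks of the 8 lists were merged into 68843 sites with a median width of 261 bp. Of the 45459 sites gained in any strain, 28916 (63.6%) were gained in 1 strain, 13380 (29.4%) in 2, 2929 (6.44%) in 3 and 234 (0.515%) in all 4. Of 21924 sites gained in BALB, 50.9% were also gained in NOD, 15.1% in PWK and 7.62% in SPRET, and 47.1% were already shared in PWK and 33.1% in SPRET. Of 26882 sites gained in NOD, 41.5% were gained in BALB, 17.2% in PWK and 6.95% in SPRET, and 31.2% were shared in PWK and 21.9% in SPRET. Of 11401 sites gained in PWK, 40.6% were gained in NOD and 29.0% in BALB. Of 5192 sites gained in SPRET, 36.0% were gained in NOD and 32.2% in BALB. These overlaps move with the basal lists of PWK and SPRET, which are longer than those of BALB and NOD. They also move with the number of sites gained in the other strain.

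A site could be gained in 1 strain and lost in another. Of 50667 sites gained or lost anywhere, 5820 were gained in 1 strain and lost in another. Of the 7084 sites lost in SPRET, 36.6% were gained in NOD and 29.4% in BALB, while 6.83% were also lost in PWK. Of the 3905 sites lost in PWK, 38.7% were gained in NOD and 30.1% in BALB. Sites gained in SPRET were gained in NOD and BALB at similar shares (36.0% and 32.2%), as were sites gained in PWK (40.6% and 29.0%). These shares move with the number of sites gained in NOD and BALB. Shared binding recurred more: 8526 of the 39339 sites shared in any strain (21.7%) were shared in all 4, whereas 1 of 11028 lost sites was lost in all 4.

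H3K27ac was read at the accessible regions of each strain's own table, 1000 bp wide, as tags normalised by the authors to 10000000 per library, with 2 basal and 2 24 h libraries per strain. The libraries held 5825130 to 20991400 tags. In every strain the second 24 h library had the smallest share of its tags in the regions (28.7%, 42.0%, 38.1% and 39.6% in BALB, NOD, PWK and SPRET), against 48.4% to 63.0% in the others. All regions together had a median log2 fold of −0.26 in BALB, −0.22 in NOD, −0.17 in PWK and −0.07 in SPRET, and median-ratio scaling moved these to 0.02, −0.01, 0.01 and 0.00. Regions near macrophage marker genes carried the mark in all strains (for Cd68, a lysosomal macrophage protein, 240.5 to 750.57 normalised tags per library). Some carried less of it at 24 h: both 24 h libraries lay below both basal ones at Mertk, an engulfment receptor, in all 4 strains, and at Spi1 (PU.1), Lyz2 and Csf1r in BALB, NOD and PWK, without correction for the shift above. There was no region at Csf1r in SPRET, and T cell, B cell, fibroblast, erythroid and neutrophil markers had at most 13.36 tags or no region. A fold is on the scale of the group mean plus 1. A region was called higher or lower by the fold rule at a change of at least 2.5-fold with at least 16 tags in either group. With 2 against 2 libraries an exact permutation test cannot go below 0.333. The tests below are therefore limma's over all regions of a strain, with Benjamini-Hochberg adjustment. Limma takes part of each region's variance from the other regions of the strain, and its tests cover no spread beyond these libraries. Adjusted p-values and counts of calls are therefore not comparable between strains. In the Anks1 intron limma's log2 fold was 5.49 (standard error 0.56, adjusted p 2.02e-18) in BALB. In NOD it was 5.15 (standard error 0.64, adjusted p 0.0454). The labels call the replicates biological without tying a library to a mouse or culture. In bulk chromatin, more cells with a mark and more of the mark per cell cannot be told apart.

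Regions with gained CEBPb peaks and no other CEBPb peak were higher by the fold rule more often than regions in general, in all 4 strains. In BALB 589 of 11279 such regions (5.22%) were higher, against 2.84% of all 54022 regions, and 463 (4.10%) were lower, against 5.13%. In NOD 856 of 15068 (5.68%) were higher, against 3.24% of all 68932, and 671 (4.45%) lower, against 5.14%. In PWK the counts were 524 of 5861 higher (8.94%, against 3.1% of all 60175) and 76 lower (1.30%, against 3.01%). In SPRET they were 194 of 2433 higher (7.97%, against 2.64% of all 54755) and 14 lower (0.575%, against 0.939%). Both 24 h libraries lay above both basal ones in 566, 819, 481 and 192 of the higher gained regions, and in 1470 of 1532, 2092 of 2231, 1725 of 1867 and 1398 of 1447 higher regions of all kinds. Median-ratio scaling shifted the split of higher and lower gained regions to 842 and 182 in BALB and to 1112 and 402 in NOD, and over all regions to 2382 and 1128 and to 3047 and 2126.

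The typical gained region changed far less than these tails. Its median log2 fold was −0.21 in BALB, −0.21 in NOD, 0.03 in PWK and 0.14 in SPRET, which is 0.05, 0.00, 0.20 and 0.22 above the median of all regions of the strain. Without the first 24 h library of BALB its median was −0.67 and 1894 of its gained regions were lower, without the second 24 h library 0.09 and 338. Under 8 settings per strain, with other scaling, a narrower overlap, lists of equal length and each library left out, the share of gained regions that were higher exceeded that of all regions in 32 of 32 cases, by 1.54 to 3.76 times, and the share lower exceeded it in 0 of 32. The part of the second 24 h library in the size of these shares was not tested further.

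Regions with lost peaks were lower more often than regions in general in all 4 strains, and those with shared peaks in BALB, NOD and PWK but not in SPRET. Regions with only shared peaks were higher in 1.74%, 2.27%, 2.55% and 3.03% of cases in BALB, NOD, PWK and SPRET and lower in 8.46%, 8.53%, 4.28% and 0.931%, with medians of −0.44, −0.44, −0.28 and −0.09. Regions with only lost peaks were few in BALB and NOD. Of them, 24 of 171 (14%) were lower in BALB, 28 of 261 (10.7%) in NOD, 111 of 1770 (6.27%) in PWK and 67 of 3781 (1.77%) in SPRET, and 4, 6, 12 and 52 were higher. Their medians were −0.46, −0.44, −0.35 and −0.18. Regions without any CEBPb peak were higher in 2.36%, 2.66%, 2.53% and 2.19% and lower in 4.32%, 3.94%, 2.34% and 0.868%, with medians of −0.21, −0.11, −0.13 and −0.06.

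**Figure D3:**
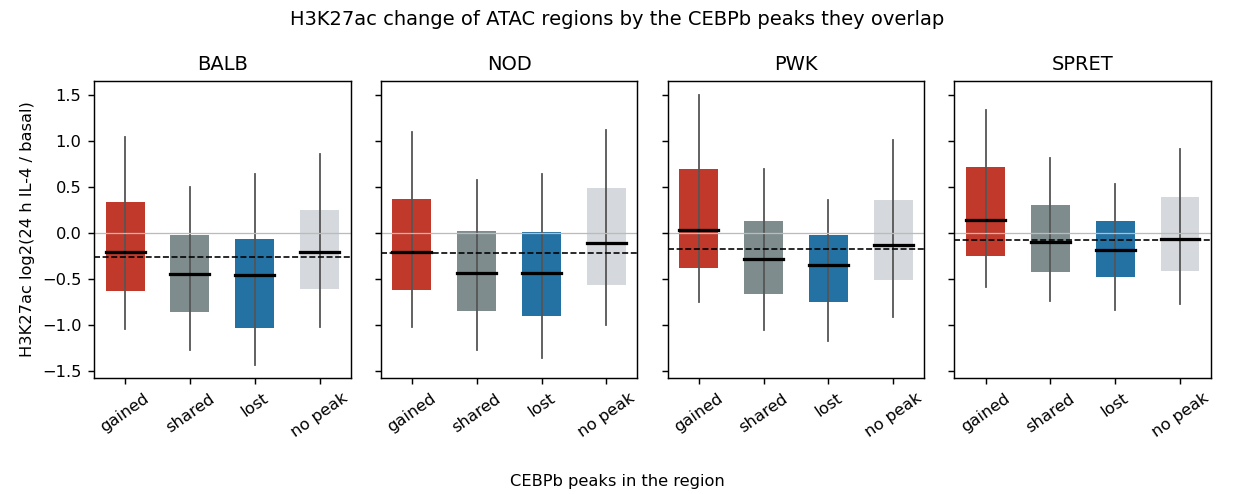
Log2 fold of H3K27ac (24 h IL-4 over basal, group means plus 1) of accessible regions by the CEBPb peaks they hold, 1 panel per strain. The box spans the quartiles, the thin line the 10th to 90th percentile and the thick line marks the median, with the median of all regions dashed. The median of gained regions lies above those of shared and lost ones in every panel, from −0.21 in BALB to 0.14 in SPRET, and in NOD below that of regions without a CEBPb peak (−0.11).

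Limma called between 24 and 327 gained regions higher, depending on the strain. In BALB 327 gained regions (2.90%) rose and 69 (0.612%) fell, against 1.6% and 0.653% of all regions. In PWK 100 (1.71%) rose and 1 (0.0171%) fell, against 0.487% and 0.0482%, and in SPRET 89 (3.66%) rose and 4 (0.164%) fell, against 0.994% and 0.192%. In NOD 24 (0.159%) rose, against 0.0566%, and none fell, against 0.0%. For falls in NOD limma called 0 regions at adjusted p and 4765 at an unadjusted p under 0.05 (950 of them gained), while edgeR called 2 (1 gained) and DESeq2 287 (51 gained). Shared regions rose in 69, 2, 79 and 169 cases (0.677%, 0.0132%, 0.392% and 1.07%). Leaving out either 24 h library took the gained regions that rose to 0 in NOD, PWK and SPRET.

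Accessibility that was new at 24 h went with higher H3K27ac at gained peaks. Gained regions listed as accessible at 24 h only numbered 2895 in BALB, 1891 in NOD, 1488 in PWK and 765 in SPRET, and 13.7%, 20.7%, 20.0% and 16.6% of them were higher, with medians of 0.36, 0.55, 0.68 and 0.55. Gained regions accessible at both times were higher in 2.43%, 3.93%, 5.60% and 4.53%. Newly accessible regions without a CEBPb peak were higher in 7.16%, 10.4%, 6.72% and 5.10%, and newly accessible regions with a shared peak in 4.87%, 7.15%, 7.40% and 6.67%.

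Other factors that appeared with CEBPb went with higher H3K27ac too. Gained regions with a STAT6 peak at 24 h only were higher in 14.9% of 2238 cases in BALB, 22.5% of 2222 in NOD, 16.1% of 2544 in PWK and 21.4% of 668 in SPRET. Those with STAT6 at both times were higher in 1.79%, 2.67%, 3.05% and 4.01%, and those with STAT6 at neither time in 3.48%, 3.31%, 3.64% and 2.17%. Regions without a CEBPb peak but with STAT6 at 24 h only were higher in 10.7%, 17.1%, 6.87% and 8.58%. With PU.1 at 24 h only the shares were 21.6%, 19%, 29.3% and 22.3% of gained regions. Of regions without a CEBPb peak they were 10.9%, 8.45%, 11.7% and 9.07%. Gained regions with PU.1 at both times were higher in 3.61%, 3.69%, 6.12% and 6.96%. Those with PU.1 at neither time were higher more often than that in every strain, in 7.65%, 7.26%, 12.3% and 10.3%. With PPARg at 24 h only the shares were 8.49%, 10.0%, 14.8% and 19.4%, against 4.79%, 6.11%, 3.43% and 7.01% without a CEBPb peak. Gained regions with PPARg at both times were higher in 2.41%, 3.06%, 5.05% and 4.82%. Those with PPARg at neither time again exceeded this in every strain, with 4.22%, 3.55%, 8.49% and 7.48%. EGR2 separated the times less in BALB and NOD. Gained regions with EGR2 at 24 h only were higher in 8.51%, 11.7%, 14.4% and 13.9%, those with EGR2 at both times in 6.83%, 9.78%, 4.40% and 7.81%. For EGR2 at neither time the shares were 3.54%, 4.35%, 8.42% and 4.496%, above those for both times in PWK alone. Regions without a CEBPb peak and EGR2 at 24 h only were higher in 4.19%, 11.1%, 4.77% and 4.45%. For each factor and strain, gained regions with the factor at 24 h only were higher more often than those with it at neither time.

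**Figure D4:**
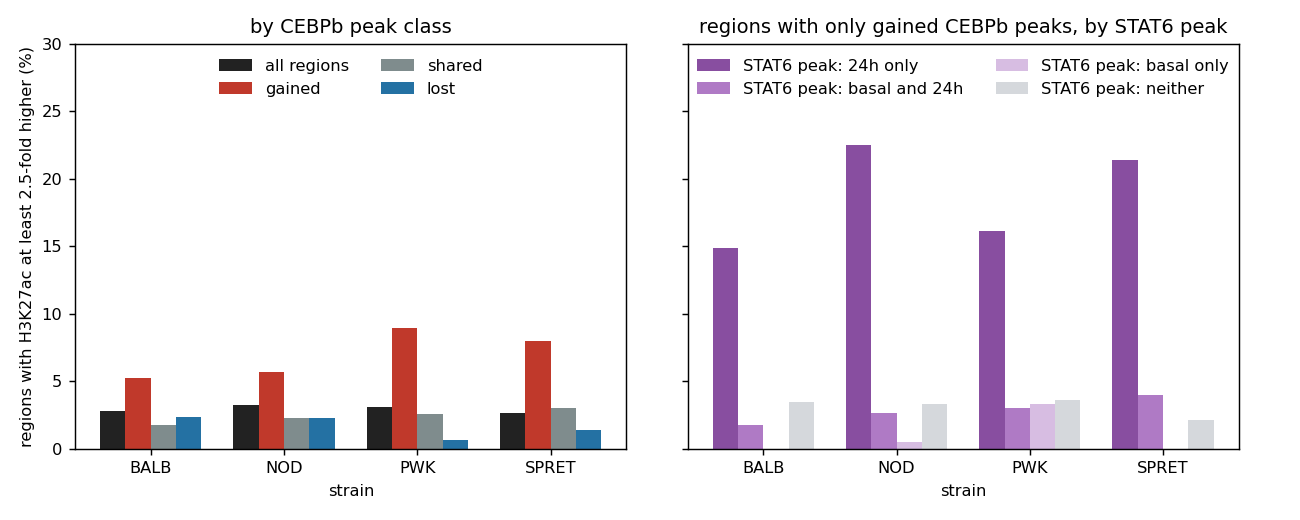
Percent of accessible regions whose H3K27ac was higher by the fold rule (at least 2.5-fold, at least 16 tags), by strain: on the left for all regions and those with only gained, shared or lost CEBPb peaks, on the right for regions with only gained peaks, split by the time at which a STAT6 peak was listed. Gained regions stand at 5.22% in BALB, 5.68% in NOD, 8.94% in PWK and 7.97% in SPRET, and those with STAT6 at 24 h only at 14.9%, 22.5%, 16.1% and 21.4%.

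The gained regions with the largest differences went from near background to strong signal. In BALB the region of the Tex9 intron peak (chr9:72485586-72485799, sequence above) had 0 and 1.19 normalised tags in the basal libraries and 67.02 and 38.59 at 24 h (limma adjusted p 1.18e-14), with peaks of PU.1, STAT6, EGR2 and PPARg at 24 h only. A peak 10326 bp from Ang5, an angiogenin-family ribonuclease gene, went from 2.94 and 2.38 to 394.58 and 130.05 tags, a log2 fold of 6.17 (adjusted p 1.34e-20). The Ang2 site, elsewhere on the same chromosome, went from 4.41 and 6.55 to 331.32 and 98.61 (log2 fold 5.06, adjusted p 1.09e-12). The angiogenin genes are close copies of each other, and whether reads could be split between them is not given in the sources used here.

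The Nbas intron was a leading region in both NOD and PWK. Nbas codes for a part of the machinery that tethers vesicles at the endoplasmic reticulum. In NOD the peak chr12:13410297-13410503 (sequence above) lay in a region with 2.49 and 0.79 basal and 123.68 and 107.5 24 h tags (adjusted p 0.0454), and in PWK the region was listed at 0 in both basal libraries and at 86.87 and 110.71 at 24 h (adjusted p 0.00103). In SPRET the region held a shared peak at another position (chr12:13410608-13410815, not overlapping those of NOD and PWK) and went from 4.27 and 19.1 to 479.59 and 200.31 tags, a log2 fold of 4.75 (adjusted p 3.19e-04). An intron of Anks1, with Taf11 as the nearest start, was among the leading gained regions of both BALB (0.73 and 1.19 to 98.64 and 75.75 tags, adjusted p 2.02e-18) and NOD (3.32 and 0.79 to 78.12 and 122.7, adjusted p 0.0454).

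In SPRET the gained peaks with the largest rises lay upstream of Fbp1, which codes for fructose-1,6-bisphosphatase, an enzyme of gluconeogenesis. The region at −13045 bp from its start went from 2.56 and 1.98 to 163.1 and 72.15 tags (log2 fold 5.18, adjusted p 1.85e-04), and that at −5334 bp from 5.98 and 1.32 to 220.4 and 110.92 (log2 fold 5.16). Between them, a region whose CEBPb peak was shared (chr13:62895269-62895477, sequence above) had 0.85 and 0 basal tags and 229.22 and 116.31 at 24 h (adjusted p 2.73e-05). In PWK the region near Cry1, a repressor of the circadian clock, went from 1.72 and 1.57 to 211.46 and 76.35 (adjusted p 0.00150), and an intron of Camsap1, a microtubule minus-end protein, was listed at 0 in both basal libraries and at 59.26 and 35.31 at 24 h (adjusted p 0.00206).

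The falls named at lost peaks were smaller than the rises named at gained peaks. They were picked from fewer regions (24, 26, 101 and 66, against 566, 819, 481 and 192). The sizes are therefore not compared further. In BALB the Kcnj16 intron (chr11:110993379-110993590, sequence above), in the gene of an inwardly rectifying potassium channel, went from 86.71 and 198.98 tags to 21.84 and 23.34, a log2 fold of −2.61 (adjusted p 0.0102). An intron of Cx3cr1, the fractalkine receptor gene (chr9:120054683-120054939), went from 136.68 and 168.6 to 35.39 and 24.3 (−2.32, adjusted p 0.0291). In NOD the region near Has1, a hyaluronan synthase gene (chr17:17866884-17867090, sequence above), had 267.65 and 106.37 basal and 54.25 and 13.51 24 h tags, a log2 fold of −2.43 that did not pass the test (adjusted p 0.227). Kcnj16 and Cx3cr1 passed the test.

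The wild-derived strains had lost regions of the same kind. In PWK the lost region in the 3′ UTR of Abhd15 went from 101.29 and 219.24 to 26.94 and 23.86 tags (−2.61, adjusted p 0.0346), and the region near Thbs1, which codes for thrombospondin 1, from 90.99 and 216.89 to 28.96 and 25.77 (−2.45, adjusted p 0.0558). In SPRET an intron of Flt3, a receptor tyrosine kinase gene of early myeloid cells, went from 88.91 and 70.46 to 20.28 and 16.15 (−2.07, adjusted p 0.0145), and an intron of Ppcdc, an enzyme gene of coenzyme A synthesis, from 88.91 and 78.36 to 10.58 and 23.69 (−2.22, adjusted p 0.0132). Abhd15, Flt3 and Ppcdc passed the test, and Thbs1 did not.

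Shared peaks marked changes in both directions. In BALB the region near Ccl8, a chemokine gene (peak chr11:82171833-82172036), went from 11.76 and 22.64 to 326.05 and 123.86 tags (log2 fold 3.63, adjusted p 2.12e-05). Rmi2, which codes for a part of the complex that dissolves DNA junctions, lay near a shared peak in PWK (13.73 and 9.4 to 313.82 and 182.29 tags, log2 fold 4.31, adjusted p 0.00162) and near a gained one in SPRET (5.13 and 2.63 to 165.74 and 85.08, adjusted p 2.09e-04). The Map3k5 intron (chr10:20058195-20058405, sequence above), in the gene of a stress-activated kinase, went down in BALB from 67.61 and 131.66 to 13.55 and 8.1 (−3.09, adjusted p 6.26e-05). In PWK the same region had 17.17 and 82.22 basal and 2.02 and 7.64 24 h tags (−3.12, adjusted p 0.122), which did not pass. In SPRET the largest fall at a shared peak lay near Smad3, a mediator of TGF-beta signals (chr9:63780674-63780898, sequence above), from 117.12 and 79.68 to 24.68 and 17.23 (−2.18, adjusted p 0.0112).

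The 234 sites gained in all 4 strains included a small group of strongly responding regions. In C57, which the rule did not use, 164 of the 234 were also gained, 18 were bound at both times and 51 at neither. A region was present in all 4 histone tables at 93 of the 234, with median log2 folds of 0.14 in BALB, 0.12 in NOD, 0.11 in PWK and 0.26 in SPRET. By the fold rule 13, 13, 17 and 12 of the 93 were higher, beside 5.22%, 5.68%, 8.94% and 7.97% of all gained regions and 2.84%, 3.24%, 3.1% and 2.64% of all regions. In every strain 7 were higher and in at least 1 strain 23, and 3 were lower in at least 1. The log2 fold was above 0 in all strains at 33 sites and below 0 in all at 16.

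**Figure D5:**
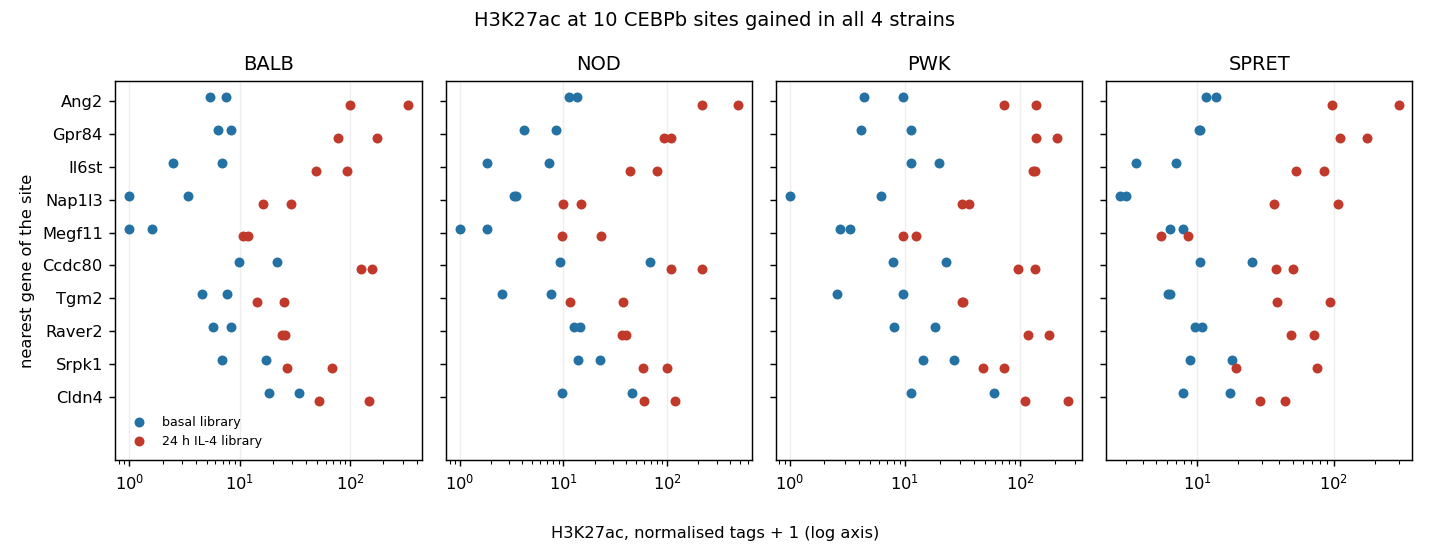
H3K27ac in each library (normalised tags plus 1, log axis) at the 10 sites gained in all 4 strains with the highest median log2 fold over the strains, 1 panel per strain, with basal libraries in blue and 24 h IL-4 libraries in red. The 24 h libraries lie above the basal ones at every site in BALB, NOD and PWK, and in SPRET at all but the Megf11 site.

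The Ang2 site (chr14:51185720-51185979, sequence above) lay 13299 bp from the start of Ang2 and led this group. Its tags went from 4.41 and 6.55 to 331.32 and 98.61 in BALB, from 12.47 and 10.32 to 482.44 and 217.26 in NOD, from 3.43 and 8.61 to 136.03 and 71.58 in PWK, and from 12.82 and 10.54 to 298.86 and 95.85 in SPRET. It rose in every strain by limma (adjusted p 1.09e-12, 0.0454, 0.00637 and 7.92e-04), with log2 folds of 5.06, 4.82, 3.90 and 3.97. The site in a Zfp385a intron at −6766 bp from the start of Gpr84, a receptor for medium-chain fatty acids (chr15:103317252-103317504), had log2 folds of 4.10, 4.01, 4.5 and 3.8 (adjusted p 5.93e-09, 0.0514, 0.00201 and 2.70e-04). The site upstream of Il6st, which codes for the shared receptor gp130 (chr13:112407341-112407686), had 3.92, 3.75, 3.09 and 3.72, and passed the test in BALB, PWK and SPRET.

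Tgm2, which codes for transglutaminase 2, a marker of alternative activation, had a site at −32396 bp from its start (chr2:158178708-158178957) with log2 folds of 1.70, 2.28, 2.39 and 3.42. In SPRET it went from 5.13 and 5.27 to 93.45 and 37.69 tags (adjusted p 0.00357), and in the other strains it did not pass the test. A site in an intron of Jak1, a kinase of the IL-4 receptor, with Raver2 as the nearest start, had log2 folds of 1.83, 1.5, 3.50 and 2.56, and passed in BALB (adjusted p 0.0444), PWK (0.00637) and SPRET (0.00862). The sites near Nap1l3, Ccdc80, Srpk1 and Cldn4 had log2 folds between 1.31 and 4.66 over the strains. At the Megf11 site the log2 fold was 3.13 in BALB, 3.53 in NOD and 1.86 in PWK, but in SPRET the groups overlapped, with 6.84 and 5.27 basal and 4.41 and 7.54 24 h tags. All 10 sites plotted were also gained in C57.

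Gained peaks lay near a large part of all genes. Within 50 kb of a start, 61.1% of 21924 protein-coding genes had a gained peak in BALB, 65.7% in NOD, 45.2% in PWK and 26.5% in SPRET, and 3753 (17.1%) had one in all 4. Lost peaks lay near 2.29%, 3.14%, 23% and 36.7%, and 60 genes had one in all 4. Genes with a gained peak in every strain and the most of them included Zc3h12a, an RNase that restrains inflammation (8, 9, 7 and 4 gained peaks in BALB, NOD, PWK and SPRET), Psap, a lysosomal lipid-binding protein (8, 7, 4 and 4), Lgals3, a galectin (9, 14, 3 and 3), and Gdf15, a stress-induced cytokine (5, 7, 4 and 4).

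Of 25 genes of alternative activation, 23 had a gained CEBPb peak in BALB, 23 in NOD, 23 in PWK and 15 in SPRET, and 2, 3, 8 and 13 had a lost one. Il4ra, the receptor chain for IL-4, had 2, 11, 7 and 3 gained peaks, and Mrc1, the mannose receptor, 7, 8, 5 and 1 beside 8, 9, 8 and 13 shared ones. Pdcd1lg2, the checkpoint ligand PD-L2, had 8, 9 and 6 in BALB, NOD and PWK and 0 in SPRET, where 5 peaks were lost. Egr2 had 4, 3, 2 and 4, Pparg 7, 8, 5 and 3, and Irf4, an IL-4-induced factor, 3, 5, 2 and 3. Retnla had 0, 1, 3 and 1, and Chil3 1 gained peak in BALB. In H3K27ac, gained regions near the 25 genes were higher in 20 of 61 cases in BALB (32.8%) and 30 of 78 in NOD (38.5%). The counts were 13 of 37 in PWK (35.1%) and 11 of 17 in SPRET (64.7%), and 1, 2, 0 and 0 were lower. Near all protein-coding genes 4.57%, 5.16%, 7.47% and 6.76% of gained regions were higher. By limma 17, 0, 3 and 7 of the gained regions near the 25 genes rose. Regions with shared peaks near the 25 genes were also higher more often, in 21.3%, 21.1%, 26.2% and 28.2% of cases. Among shared regions near all protein-coding genes the shares were 1.69%, 2.09%, 2.33% and 2.57%.

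The other lists were as follows. Of 15 genes of the C/EBP family and its partners, 14, 15, 13 and 5 had a gained peak and 1, 1, 6 and 13 a lost one, and 3 of 28, 3 of 51, 3 of 22 and 1 of 7 gained regions were higher, while 0, 1, 3 and 0 were lower. Cebpb itself had 3, 6, 3 and 0 gained peaks and Cebpa 3, 7, 4 and 0. At the Cebpa promoter peak, shared in all strains, log2 folds were 0.41, 0.41, 0.14 and 0.04. Of 18 myeloid C/EBP target genes, 15, 18, 12 and 14 had a gained peak, with 3 of 40, 5 of 43, 1 of 19 and 0 of 14 gained regions higher. Of these gained regions 1, 2, 1 and 0 were lower. The log2 fold was above 0 in 11, 13, 4 and 7, with medians of −0.36, −0.38, −0.33 and −0.01. Of 12 lipid genes 12, 12, 8 and 7 had a gained peak, with 0 of 21, 1 of 24, 0 of 4 and 0 of 3 gained regions higher. Gained peaks also lay near genes of other lineages (3 T cell genes had 2, 3, 3 and 2 members with one, 3 erythroid genes 3, 3, 1 and 0).

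Inflammatory genes had CEBPb peaks in every strain, and H3K27ac at their shared peaks was lower more often than it was higher. All 18 genes of the list had a shared peak in each strain, and 17, 17, 13 and 11 had a gained one. Among all protein-coding genes 47.9%, 56.0%, 65.0% and 60.5% had a shared peak and 61.1%, 65.7%, 45.2% and 26.5% a gained one. Their shared regions were lower in 15 of 62 cases in BALB (24.2%), 24 of 73 in NOD (32.9%), 13 of 83 in PWK (15.7%) and 5 of 68 in SPRET (7.35%), beside 8.0%, 7.93%, 3.83% and 0.894% of shared regions near all protein-coding genes, and higher in 0, 0, 3 and 3. The medians of these shared regions were −0.65, −0.71, −0.62 and −0.03. Gained regions near the listed genes were higher in 0 of 25, 0 of 35, 1 of 9 and 0 of 6 cases. They were lower in 3, 6, 0 and 1, with medians of −0.59, −0.59, −0.57 and 0.10. Ccl3, a chemokine gene, had 11, 12, 16 and 19 shared peaks. At Il1b, the interleukin-1 beta gene, the peak 10796 bp downstream of the start (chr2:129360175-129360511) was shared everywhere. In SPRET its region rose, from 76.08 and 89.56 to 315.61 and 201.38 tags (log2 fold 1.63, adjusted p 0.037), while in BALB it had 47.03 and 86.38 basal and 108.43 and 81.46 24 h tags, with groups that overlapped.

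Arg1, the arginase that marks alternatively activated macrophages, showed how the same site was classed differently between strains. At the site −4255 bp from its start (chr10:24931602-24931876) the peak was gained in BALB and NOD, and in C57, but shared in PWK and SPRET. Basal H3K27ac was low where it was gained, at 11.76 and 7.74 tags in BALB and 7.48 and 26.19 in NOD, and higher where it was shared, at 181.97 and 50.11 tags (PWK) and 70.1 and 106.68 tags (SPRET). The 24 h libraries of the same strains had 87.35 and 54.31 tags (BALB), 97.64 and 141.27 (NOD), 631.01 and 211.87 (PWK) and 388.79 and 258.46 (SPRET), above the basal libraries of their strain in every case. It rose by limma in BALB (log2 fold 2.74, adjusted p 3.88e-04) and SPRET (1.86, adjusted p 0.0174), and log2 folds of 2.76 in NOD (adjusted p 0.149) and 1.85 in PWK (0.239) did not pass. A peak at −2820 bp was shared in all 4 strains, with log2 folds of 2.59, 1.77, 0.62 and 1.14.

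Slc7a2, the transporter that brings arginine into the cell, had a shared peak at −11306 bp (chr8:40850957-40851223) in every strain, with log2 folds of 2.91, 3.25, 2.96 and 2.25 that passed the test in BALB (adjusted p 0.00205), PWK (0.0298) and SPRET (0.00846). A peak at −6723 bp was gained in PWK alone, where its region went from 8.58 and 2.35 to 288.23 and 88.76 tags (log2 fold 4.87, adjusted p 0.00297). Cx3cr1 went the other way. Within 50 kb of its start it had 4, 6, 7 and 6 shared, 2, 2, 0 and 1 gained and 1, 0, 0 and 0 lost peaks, and at the 5 sites in the gene that were shared in NOD, PWK and SPRET, of which BALB had lost 1, the log2 folds ran from −1.59 to −2.46 over the strains. A site 9531 bp from its start gained a peak in SPRET while its H3K27ac fell, from 119.68 and 93.51 to 17.63 and 31.23 tags (−2.08, adjusted p 0.0132). At Mrc1 the shared promoter peak had log2 folds of 0.26, 0.15, 0.58 and −0.06, with groups that overlapped.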

How the data were processed

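The authors mapped reads with Bowtie2 to each strain's genome, shifted positions to mm10, called peaks with HOMER and merged replicates by IDR. The deposited lists give a score and a count per peak. The scores were used only to rank peaks. The deposited H3K27ac, Pol II, H3K4me2 and H3K4me3 values are a tag signal in 1000 bp regions, scaled by the authors to 10000000 tags per library. Of these values, 100% came out as whole reads within 0.05 read, which gave counts for edgeR and DESeq2 as alternatives. Groups came from the labels, and strains were analysed separately because their tables hold different regions.

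Peaks were compared by 1 bp overlap, assigned to genes within 50 kb of the start of protein-coding genes, and searched for motifs in mm10 (Python 3.11.15). H3K27ac was tested with limma 3.58.1 (R 4.3.3) on log2(value + 1) over all regions of a strain without a filter, 2 against 2 libraries, with Benjamini-Hochberg adjustment at 0.05, and counted by the fold rule. The alternatives were edgeR 4.0.16, DESeq2 1.42.0, median-ratio scaling, other pseudocounts, filters and folds, other overlaps, shortened lists and each library left out. The code of the tests was checked on counts simulated from the NOD regions, with a fixed dispersion and large changes only. The simulated libraries did not differ in their share of tags in regions, as the real ones do. The check therefore does not show how the tests behave on these libraries. Columns matched to no sample numbered 0.

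Named regions are, per strain and among those past the fold rule with non-overlapping libraries, the 5 largest rises at gained peaks, the 3 largest falls at lost peaks and the 2 largest rises and falls at shared peaks, from which the text takes examples, and the 10 sites gained in all strains with the highest median H3K27ac change. Members, gene lists and tests were chosen with earlier results of these data known. The authors' columns of annotation beside the regions were used only for position and accessibility.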

Additional observations from a re-analysis of the deposited data

Results flagged for a closer look

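The change in list length from basal to 24 h IL-4 went in opposite directions between strains: the 24 h list exceeded the basal one by 21607 peaks in BALB, 26492 in NOD and 7496 in PWK, whereas in SPRET the difference was −1892 peaks. With 1 list per group the difference between strains was not tested.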

How the results depend on the processing

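Of 216 alternatives over 28 results, 141 stayed within their limits and 75 moved a value past them. The direction of single regions was not compared between settings. The median of gained regions changed sign in BALB and PWK. In BALB it was 0.07 with median-ratio scaling or lists of equal length, and 0.091 without the second 24 h library. In PWK it was −0.11 without the first 24 h library. Without the first 24 h library fewer gained regions were higher than lower in BALB (404 against 1894) and NOD (863 against 1361). Shortening both lists to the same length gave 2746, 3618 and 6181 gained and as many lost peaks in BALB, NOD and PWK, with 190 and 304 gained regions higher in BALB and NOD, 48, 60 and 34 lower in BALB, NOD and PWK, and 111 and 13 limma rises in BALB and NOD. The better-scoring peaks above the median rank of a list, set against the whole other list, gave 5473, 5929, 1157 and 373 gained and 57, 60, 233 and 566 lost peaks in BALB, NOD, PWK and SPRET, numbers that still follow list length. Gained regions lower by the rule numbered 1142, 1444, 236 and 42 at a fold of 2, 182, 402, 35 and 9 after median-ratio scaling, and 49 (PWK) and 9 (SPRET) with a pseudocount of 5. With median-ratio scaling the PWK median was 0.22. Limma rises at gained regions were 172, 53 and 151 with a filter of 32 tags in BALB, NOD and PWK, 62 in NOD with a filter of 16 tags (an alternative chosen after seeing the data) and 48 with a pseudocount of 5, and, after median-ratio scaling, 0 (NOD) and 39 (PWK). On recovered reads edgeR called 47 in NOD and 143 in SPRET (265 in BALB, 150 in PWK), and DESeq2 400 in NOD and 174 in PWK. The planned limma fit without a filter is the reported one. The cause of these shifts was not tested.

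With a replicate block limma called 701, 1463, 697 and 283 rises. The labels give only a number for pairing: deviations of same-numbered libraries correlated at 0.43, 0.49, 0.44 and 0.26, with 2 pairs per strain, so the main values are without the block.

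Leaving out each library in turn gave 404 to 849 gained regions higher in BALB, 863 to 1209 in NOD, 563 to 713 in PWK and 175 to 262 in SPRET. Regions lower ranged from 338 to 1894 (without the first 24 h library), 756 to 1361 (1084 without the first basal library, 1361 without the first 24 h one), 123 to 247 (any of the 4 libraries) and 14 to 37 (any but the first basal one). The medians ranged from −0.67 to 0.091, −0.41 to −0.01, −0.11 to 0.12 and 0.03 to 0.21, with the lowest in BALB and PWK without the first 24 h library. Limma rises ranged from 169 (without the first basal library; 188 without the first 24 h one) to 304 in BALB, 0 to 425 in NOD, 0 to 374 in PWK and 0 to 51 in SPRET, with 0 in these 3 strains without either 24 h library; the lone library left is assumed to vary like the other group. Near alternative activation genes the number higher moved to 20 in PWK with median-ratio scaling and to 7 in SPRET without its first 24 h library.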

Other observations

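Pol II, the enzyme that transcribes genes, was higher more often at regions with gained CEBPb peaks as well, by the same fold with at least 8 tags: in 7.52% of them in BALB, 3.90% in NOD, 5.97% in PWK and 3.33% in SPRET, against 5.91%, 2.35%, 2.66% and 1.54% of all regions and 4.64%, 2.01%, 2.60% and 1.41% of regions with shared peaks. H3K4me2, a mark of enhancers and promoters, was higher at 0.647%, 0.637%, 3.05% and 0.534% of gained regions, against 0.294%, 0.354%, 0.926% and 0.141% of all. For H3K4me3, a promoter mark, the shares were 0.337%, 0.385%, 0.768% and 0.534%, against 0.235%, 0.223%, 0.396% and 0.283%.

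Among gained and lost peaks, some of the best-scoring ones (ties ranked by the deposited count) recurred at a few positions with changing class. Shared peaks were not ranked here. At chr2:98666517-98666719, near Gm10800, the peak was lost in BALB with a count of 1204 and at almost the same position in NOD (1149), and gained in PWK. Peaks on chromosome 17 whose nearest protein-coding start was the distant Esp38 were among the best-scoring gained peaks of BALB, NOD and PWK and among the best-scoring lost peaks of BALB, NOD and SPRET. Peaks on the mitochondrial chromosome numbered 16, 20, 18 and 9 in BALB, NOD, PWK and SPRET.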
